A study of Mus musculus with 2 samples.

Results

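The cells described here are the nascent mesoderm cells of gastrulating mouse embryos at embryonic day 7 (E7), cells that hold transcripts of *Mesp1* or *Mesp2* and that hold few or no UMIs of chosen later mesoderm and blood genes. A cell barcode was a member when it passed the quality filter of at least 5000 detected genes and at most 10% mitochondrial UMIs (unique molecular identifiers, 1 per captured RNA molecule) and held at least 3 UMIs of *Mesp1* and *Mesp2* together. It also had to hold fewer than 5 UMIs of *Foxf1*, *Hand1* and *Tdo2* (later mesoderm), fewer than 5 of *Tal1*, *Lmo2*, *Etv2* and *Fli1* (blood and endothelium), fewer than 5 of *Noto*, *Chrd*, *Foxj1* and *Cer1* (node and endoderm), and under 200 CPM (the usual per-million scale, a gene's UMIs over all UMIs of the cell) of *Ttr*, *Afp*, *Apoa1*, *Rbp4* and *Apoa4* (extraembryonic endoderm). Of 1655 cells past the quality filter, 123 were members: 52 of 791 in the control library (6.57%, exact 95% binomial interval 4.95 to 8.53%) and 71 of 864 in the *Yap1* cKO library (8.22%, 6.47 to 10.3%). The members were thus chosen by measured UMIs of these genes, and their levels in the members are a description.

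The *Yap1* cKO library came from a pool of 3 embryos with both *Yap1* alleles floxed and Sox2-Cre (Sox2cre:Yapflox/flox), a driver that recombines in the epiblast and everything derived from it, nascent mesoderm included. The control library came from a pool of 4 embryos with 1 floxed allele and the same Cre (Sox2cre:Yapflox/+), although its sample label reads WT and another passage of the study's methods describes floxed littermates without Cre. Extraembryonic ectoderm arises outside the Cre domain, and the study takes it as probably heterozygous for *Yap1*. Each genotype was measured once, in a droplet library with 3' UMI counts, so no comparison could be tested over replicates, and every interval below is exact at 95% and covers counting error only. Differences between embryos, pools, libraries and genotypes cannot be told apart.

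At gastrulation, epiblast cells enter the primitive streak under Nodal, Wnt and FGF signals, lose their epithelial junctions and leave as mesoderm. *Mesp1* and its neighbour *Mesp2* encode basic helix-loop-helix factors that are switched on in the first mesoderm to leave the streak, much of which goes on to form the heart and head mesoderm, and they fade as these cells mature. YAP1 is a transcriptional co-activator held back by the Hippo kinases. In the nucleus it binds TEAD factors, and several of its targets are Hippo components that feed back on it.

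*Mesp1* (ENSMUSG00000030544, minus strand of chromosome 7) and *Mesp2* (ENSMUSG00000030543, plus strand) lie next to each other and define these cells, so their promoters are shown first. The sequences are RefSeq promoters of GRCm38.p6, 250 bases before to 50 after the transcript start, 5′ to 3′ on the strand of the gene, at chr7:79793541-79793840 and chr7:79810477-79810776. Capitals mark the letters TCACACCT, a T-box site of the kind that Eomes, T and Tbx6 bind, searched on both strands.
Mesp1: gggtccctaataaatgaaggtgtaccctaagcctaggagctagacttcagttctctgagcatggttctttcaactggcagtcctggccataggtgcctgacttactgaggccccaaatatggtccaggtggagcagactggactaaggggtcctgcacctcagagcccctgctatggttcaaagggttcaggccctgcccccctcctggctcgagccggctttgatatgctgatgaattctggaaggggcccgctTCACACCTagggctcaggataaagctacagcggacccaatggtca
Mesp2: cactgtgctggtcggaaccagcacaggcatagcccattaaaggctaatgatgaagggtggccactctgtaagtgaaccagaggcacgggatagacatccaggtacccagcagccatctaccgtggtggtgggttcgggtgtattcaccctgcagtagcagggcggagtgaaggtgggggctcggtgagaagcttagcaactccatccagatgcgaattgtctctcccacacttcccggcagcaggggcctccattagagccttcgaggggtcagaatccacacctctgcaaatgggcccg
The *Mesp1* window held the site once, at bases 256 to 263 counted from its 5′ end, and these letters were not in the *Mesp2* window. Of 32851 promoter windows of this length, 419 (1.28%) hold TCACACCT on either strand. A match is a run of letters and not a measured site.

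*Mesp1* was by far the more abundant of the pair. Over all members *Mesp1* reached 939 CPM (908 to 970) among control cells and 836 CPM (813 to 860) among *Yap1* cKO cells, against 30.6 CPM (25.4 to 36.7) and 38.5 CPM (33.6 to 43.9) for *Mesp2*. Control cells held from 3 to 245 *Mesp1* UMIs with a median of 56, and *Yap1* cKO cells from 3 to 290 with a median of 55. The libraries overlapped over nearly the whole range of *Mesp1*. *Mesp2* was seen in 33 of the 52 control and 46 of the 71 *Yap1* cKO cells. Every cell was then thinned to 49000 UMIs. *Mesp1* was found in 100% of the 51 control cells and 98.5% of the 66 *Yap1* cKO cells deep enough. It was found in 0.625% and 1.23% of extraembryonic ectoderm cells. Those cells were chosen to hold fewer than 3 *Mesp1* and *Mesp2* UMIs, so their low shares follow from that choice. Median depths were 73801 and 77159 UMIs in members and 83342.5 and 99305 in extraembryonic ectoderm. The threshold of 3 UMIs cut through few cells: 3 control and 6 *Yap1* cKO cells sat just outside it with 2 UMIs, and 3 and 4 cells just inside it with exactly 3. Cells with 2 UMIs held 315 and 365 CPM of the epiblast gene *Utf1* and 41.8 and 35.9 CPM of *T*, while cells with 3 UMIs held 111 and 56.5 CPM of *Utf1* and 270 and 163 CPM of *T*. *Lefty2* and *Lhx1* were at 0 in cells with 2 UMIs and at 0 and 3.32 CPM in cells with 3, far below their level over all members on both sides of the threshold. In all, 13 of 52 control (25%) and 17 of 71 *Yap1* cKO members (23.9%) held under 20 *Mesp1* and *Mesp2* UMIs. This class was set after the data were seen. Most of its cells held no *Lefty2* UMI, while others held up to 988 CPM. Most cells with *Mesp1* or *Mesp2* were removed by the limits on later cells: of 144 control and 177 *Yap1* cKO cells with at least 3 such UMIs, 72 and 87 exceeded the limit on later mesoderm genes and 36 and 46 that on blood genes.

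**Figure D1:**
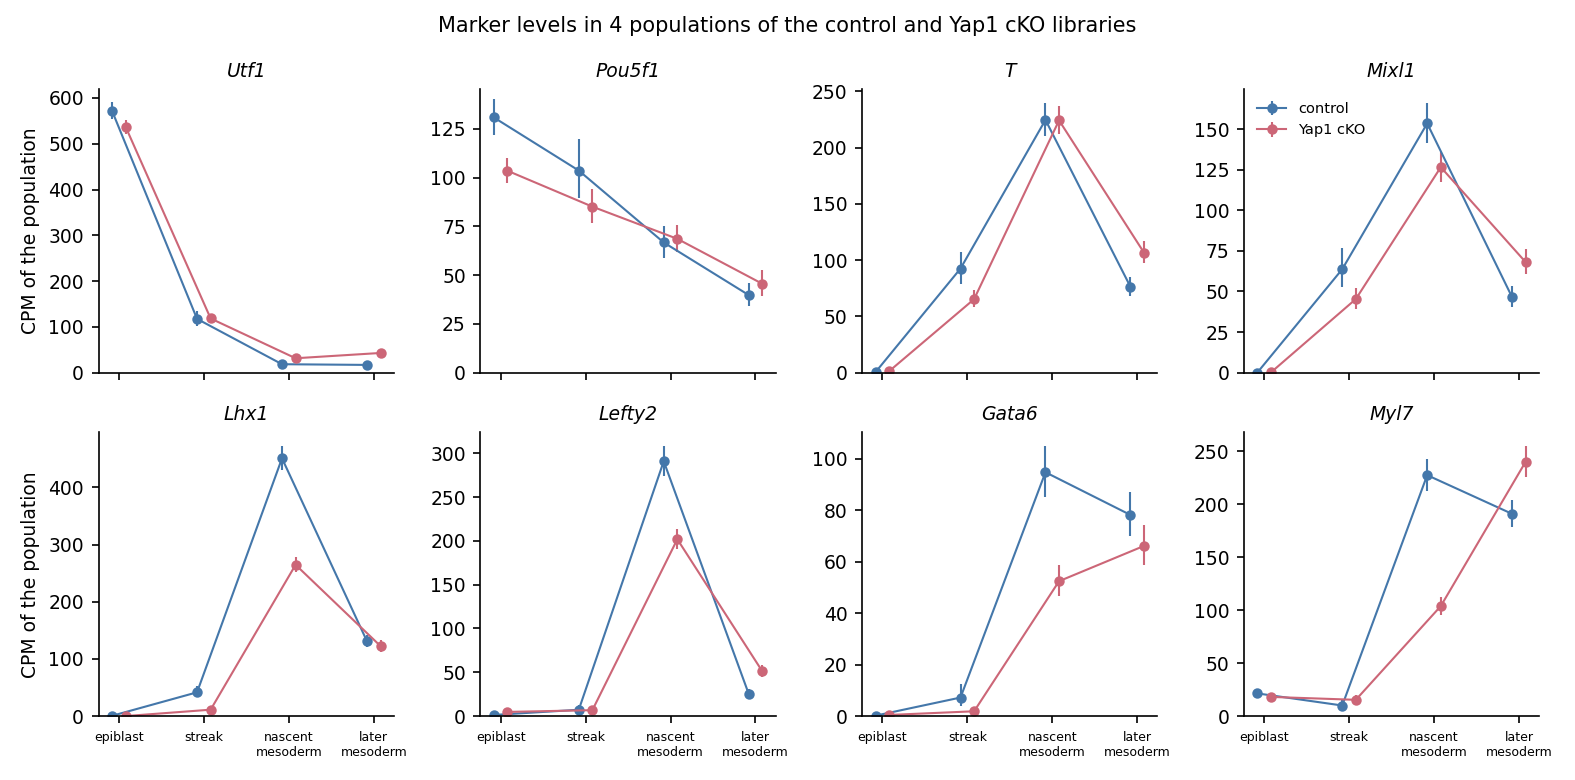
Level of 8 marker genes (vertical axes, CPM, the gene's UMIs summed over a population and divided by all its UMIs, with exact 95% Poisson intervals) in 4 populations of the control (blue) and *Yap1* cKO (red) library. *Utf1* was highest in epiblast, while *T*, *Mixl1*, *Lhx1* and *Lefty2* were highest in nascent mesoderm (epiblast cells were defined by few *T* and *Mixl1* UMIs), where *Lhx1* stood at 451 CPM (control) and 265 CPM (*Yap1* cKO).

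The name of the cells was checked against genes the rule did not use, in 3 reference populations of the same libraries. Epiblast cells (60 control, 72 *Yap1* cKO) held at least 10 *Pou5f1* UMIs and fewer than 3 UMIs of *T* and *Mixl1*. Streak cells (26 and 43) held at least 3 UMIs of *T* and *Mixl1* but fewer than 3 of *Mesp1* and *Mesp2*. Later mesoderm cells (62 and 56) were past the limit on *Foxf1*, *Hand1* and *Tdo2*. Of them, 45 and 47 still held at least 3 *Mesp1* and *Mesp2* UMIs. From both latter populations, cells with 5 or more UMIs of the extraembryonic ectoderm genes *Elf5*, *Esx1* and *Wnt7b* were left out after the data were seen, because 26 of 52 control and 6 of 49 *Yap1* cKO streak cells, and 84 of 146 and 66 of 122 later mesoderm cells, carried them.

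Nascent mesoderm cells held the genes of mesoderm leaving the streak. The T-box genes *T* (225 and 224 CPM in control and *Yap1* cKO) and *Eomes* (311 and 312 CPM) and the homeobox gene *Mixl1* (153 and 127 CPM), all specifiers of mesendoderm, were abundant in both libraries. *Eomes* was not particular to members, with 372 and 281 CPM in streak cells and 178 and 176 CPM in extraembryonic ectoderm. Of 7 streak genes that reached the minimum against streak cells, 2 were at least 1.5-fold higher in members of both libraries and 2 lower. Over all genes in that comparison the shares were 3.57% and 1.62%. *Lefty2*, which encodes a secreted Nodal antagonist, stood at 291 and 202 CPM against 7.20 and 6.74 CPM in streak cells and 25.4 and 51.1 CPM in later mesoderm. The Notch ligand *Dll1* (28.3 and 19.1 CPM) and the T-box gene *Tbx6* (17.1 and 12.2 CPM) were low, but lower still in streak cells (1.11 and 0.93 CPM for *Dll1*, 2.77 and 0.93 CPM for *Tbx6*) and in later mesoderm (6.17 and 5.09 CPM for *Dll1*, 6.17 and 6.24 CPM for *Tbx6*). The Wnt agonist *Rspo3* stood at 85.7 and 115 CPM, and at 124 and 121 CPM in later mesoderm, so it does not set the members apart from it. Genes of more advanced fates were mixed. The cardiac and anterior mesoderm list summed to 471 and 267 CPM, with *Myl7* at 227 and 104 CPM as its most abundant gene, while its members *Tnnt2* and *Nkx2-5* had no UMI in either library. The paraxial regulator *Msgn1* had 3 and 1 UMIs over all members, and the embryonic globin *Hbb-bh1* had none. The extraembryonic ectoderm gene *Elf5* was at 1.30 CPM in the control members and at 0 in the *Yap1* cKO members, against 370 and 318 CPM in extraembryonic ectoderm, cells that were selected on it.

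Against streak cells, 227 of 6350 genes with at least 100 UMIs over both populations in each library (3.57%) were at least 1.5-fold higher in members of both libraries, and 103 (1.62%) lower. Since *Mesp1* and *Mesp2* split these cells, the folds describe the split and test nothing. Among the 12 genes most above streak cells were the FGF ligands *Fgf3* (105 and 79.3 CPM in members against 0.554 and 2.32 CPM in streak cells) and *Fgf10* (60.8 and 43.5 against 1.66 and 0.697 CPM), and the VEGF receptor gene *Kdr* (37.4 and 27.7 against 0.554 and 0.232 CPM). *Wnt2*, a ligand of cardiac and lateral mesoderm, was at 35.1 and 24.2 CPM in members and had 0 and 1 UMIs in streak cells. The others were *Arl4d*, which stood first, *Rasgrp3*, *Hs3st3b1*, the transcriptional regulators *Prdm6*, *Lmo1* and *Gata4*, the receptor gene *Pdgfra* and *Lefty2*. *Lefty2* was 40.4-fold and 29.9-fold higher, *Gata4* 35.4-fold and 28.1-fold and *Pdgfra* 36.1-fold and 23.4-fold. In later mesoderm *Fgf3* stood at 117 and 109 CPM and *Fgf10* at 62.0 and 68.2 CPM. *Kdr* stood there at 86.4 and 80.5 CPM and *Gata4* at 106 and 97.8 CPM. All of these were above the members, so they do not set the members apart from later mesoderm, where *Lefty2* was lower. The 12 genes most below streak cells were, in order, *Eras*, *Utf1*, *Pou3f1*, *Sema3e*, *Zfp462*, *Xkr4*, *Cldn7*, *Nodal*, *Cldn6*, *Nrcam*, *Cxcl12* and *Pkdcc*. Of 11 epiblast genes that reached the minimum in this comparison, 8 were lower in members of both libraries and 1 was higher. *Utf1* stood at 117 and 118 CPM in streak cells and at 18.4 and 31.5 CPM in members, and *Nodal* at 48.7 and 65.1 against 13.5 and 25.1 CPM. Against epiblast cells 478 of 8050 genes (5.94%) were higher and 534 (6.63%) lower, with *Lhx1*, *Cyp26a1* and *Gata4* at or under 3 UMIs in the epiblast cells of either library.

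Against later mesoderm, 115 of 7429 genes (1.55%) were at least 1.5-fold higher in members of both libraries and 203 (2.73%) lower. The guidance cue *Ntn1* (28.8 and 23.6 CPM against 0.457 and 1.62 CPM), the peptide ligand *Apln* (42.1 and 50.5 against 2.74 and 8.33 CPM) and the epiblast growth factor *Fgf5* (72.7 and 70.3 against 7.54 and 16.7 CPM) led the first group. After them came *Epha1*, *Lefty2*, *Pkdcc*, *Lrig3*, *Dll1*, *Dlgap2*, *Tgfbr3*, the Wnt-responsive factor *Sp5* (195 and 171 against 40.9 and 51.6 CPM) and the activin antagonist *Fst*. Later mesoderm was instead rich in the netrin receptor *Unc5c* (223 and 107 CPM against 5.97 and 6.36 CPM in members), the ligand *Bmp4* (84.8 and 34.9 against 2.34 and 2.58 CPM), its target *Msx2*, the growth factor *Igf2* with the neighbouring noncoding RNA *H19*, and the T-box gene *Tbx20*. The others of the 12 genes most below it were *Morc4*, which stood second, *Pmp22*, *C430049B03Rik*, *Ackr3*, *Dlk1* and *Kcnq5*. The ligand *Ntn1* thus lay on the side of the members and the netrin receptor *Unc5c* on the side of later mesoderm in both libraries. By this measure all 9 genes of the extraembryonic and lateral mesoderm list that reached the UMI minimum were lower in members, and 7 of 9 epiblast genes and 6 of 9 streak genes were higher. With the cells that carry extraembryonic ectoderm genes kept in, as first designed, 278 of 7282 genes (3.82%) were higher and 221 (3.03%) lower against streak cells, and 912 of 9241 (9.87%) and 1123 (12.2%) against later mesoderm. The genes then furthest below in members were led by *Rhox5*, at 1.3 and 3.44 CPM in members against 1410 and 1717 CPM in those later mesoderm cells.

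The members were not uniform. Across cells, the summed CPM of the 12 epiblast genes and of the 15 cardiac and anterior mesoderm genes ran against each other, with a Spearman's rho of -0.74 over 52 control cells and -0.70 over 71 *Yap1* cKO cells. Cells of a library share its pool and its depth, so these are descriptions. Depth had a rho of -0.15 and 0.32 with the epiblast sum and of 0.11 and -0.28 with the cardiac sum. *Mesp1* and *Mesp2* together had a rho of 0.22 (control) and 0.50 (*Yap1* cKO) with the cardiac sum, and of -0.20 and -0.39 with the epiblast sum. Of genes with at least 100 UMIs, *Snai1* (0.56 and 0.65), a repressor of E-cadherin at the epithelial to mesenchymal transition, *Pdgfra* (0.54 and 0.62) and *Fgf3* (0.50 and 0.58) had the highest rho with *Mesp1* and *Mesp2*, and the helix-loop-helix inhibitor *Id2* (-0.49 and -0.53) and the E-cadherin gene *Cdh1* (-0.42 and -0.53) were among the lowest. These genes were chosen after their values were seen, and *Mesp1* and *Mesp2* also chose the cells.

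The atrial myosin light chain gene *Myl7*, an early heart gene, was uneven. Its level ranged from 0 to 1866 CPM over control cells with a median of 24.1 CPM, and from 0 to 1335 CPM over *Yap1* cKO cells with a median of 14.5 CPM. *Lefty2* ranged from 0 to 1297 CPM over control cells (median 189 CPM) and from 0 to 1449 CPM over *Yap1* cKO cells (median 57.1 CPM). The ranges of *Lefty2* were alike and the medians were not. *Lhx1*, a LIM homeobox factor of anterior mesoderm, was found in 44 of 52 control and 53 of 71 *Yap1* cKO cells, with medians of 435 and 243 CPM. The homeobox gene *Gsc* was found in 45 and 53 cells, with medians of 64.1 and 36.4 CPM.

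**Figure D2:**
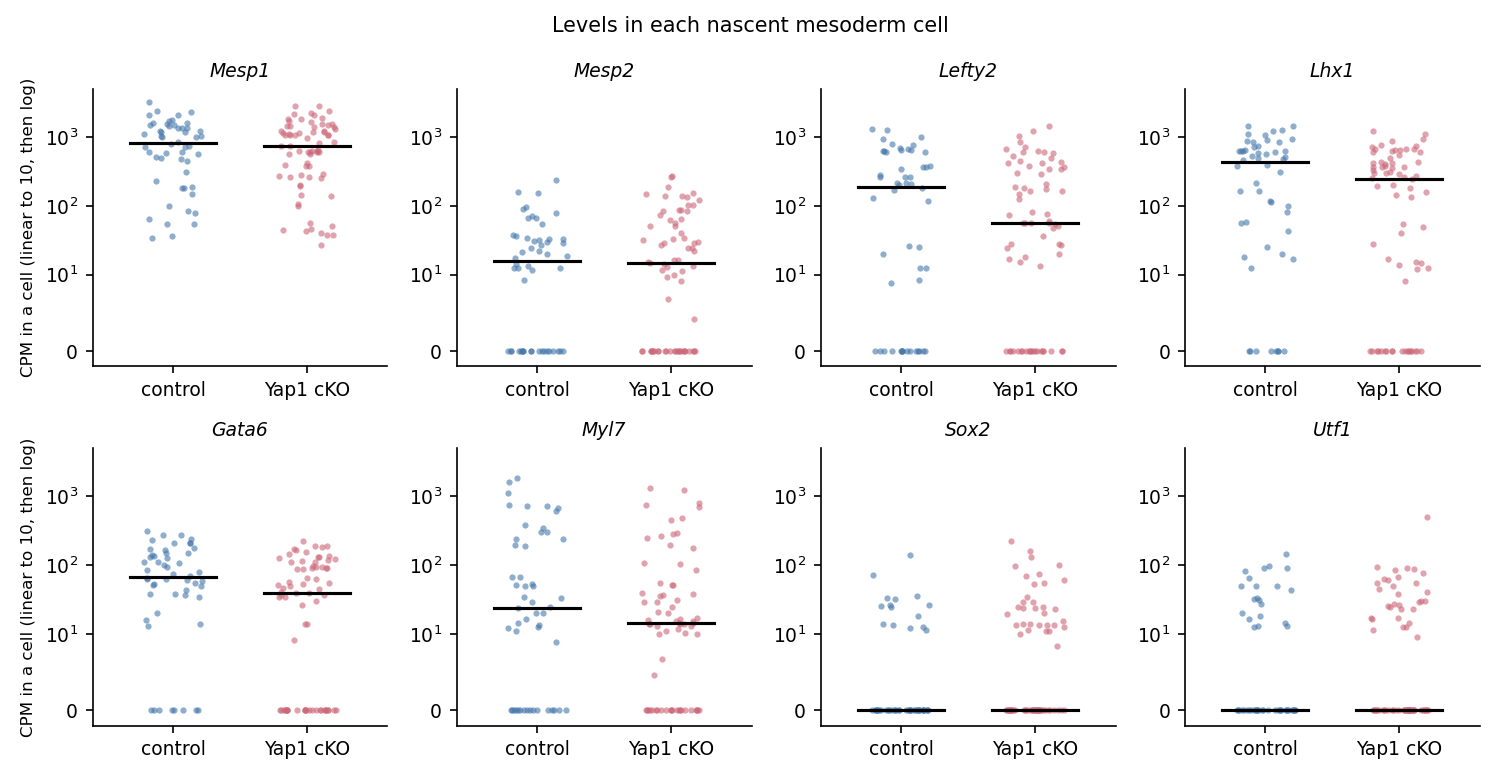
CPM of 8 genes in each of the 52 control (blue) and 71 *Yap1* cKO (red) nascent mesoderm cells (vertical axis linear up to 10 CPM and logarithmic above), with black bars at the medians. The 2 libraries overlapped for every gene shown, and the medians of *Lefty2* (189 and 57.1 CPM) and *Lhx1* (435 and 243 CPM) stood furthest apart.

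The sex of the cells differed between the libraries. Although the labels give both pools as female, 24 of 52 control members (46.2%) but 5 of 71 *Yap1* cKO members (7.04%) were Y-bearing. These cells held at least 2 UMIs of the Y-linked genes *Ddx3y*, *Eif2s3y*, *Kdm5d* and *Uty* and no *Xist* UMI. Another 28 (53.8%) and 63 (88.7%) were *Xist*-bearing, with at least 2 *Xist* UMIs and none of those Y-linked genes. Some *Yap1* cKO members fell in neither class. The pools were thus not balanced, and Y-bearing and *Xist*-bearing cells come from different embryos of a pool, so values in both classes are given beside several of the comparisons below, and the medians of the lists in each class after them. Within the control alone, 378 of 7824 genes (4.83%) were at least 1.5-fold higher in *Xist*-bearing members and 421 (5.38%) in Y-bearing members. Within the *Yap1* cKO library, whose Y-bearing class is 5 cells, these were 1043 (13.3%) and 639 (8.17%). These shares rest on fewer UMIs a gene than those between the genotypes below and are larger than them. Depth was similar, with a median of 73801 UMIs per control member (43467 to 112445) and 77159 per *Yap1* cKO member (26808 to 235933), 3851206 and 5816733 UMIs in all. The libraries shared 2 cell barcodes, none of them a member.

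The targeted gene was checked first. *Yap1* had 110 UMIs over the control members and 15 over the *Yap1* cKO members, 28.6 CPM (23.5 to 34.4) against 2.58 CPM (1.44 to 4.25), a ratio of 0.09 (0.05 to 0.16). It was found in 43 of 52 control cells and in 10 of 71 *Yap1* cKO cells. In extraembryonic ectoderm *Yap1* stood at 25.2 and 19.8 CPM, a ratio of 0.78 (0.66 to 0.93). *Yap1* RNA outside the deleted domain was thus present in both pools, and its share in the 15 remaining UMIs was not tested. The other co-activator, TAZ, encoded by *Wwtr1*, stood at 19.7 and 19.8 CPM (ratio 1.0, 0.74 to 1.36). The TEAD genes *Tead1* (0.87, 0.76 to 0.99) and *Tead2* (0.97, 0.90 to 1.06) and the TEAD cofactor *Vgll4* (0.95, 0.71 to 1.26) were within 1.5-fold.

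Over all genes with at least 100 UMIs in the members of both libraries together, leaving out the genes of the rule, *Xist*, *Tsix* and Y-linked genes, 149 of 7824 (1.9%) were at least 1.5-fold higher in the *Yap1* cKO members and 138 (1.76%) at least 1.5-fold lower. The median log2 ratio was -0.0057, so the genes were centred near equality. With 1 library per genotype these are sizes and not tested changes, and shares of the lists below are read against 1.9% and 1.76%.

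**Figure D3:**
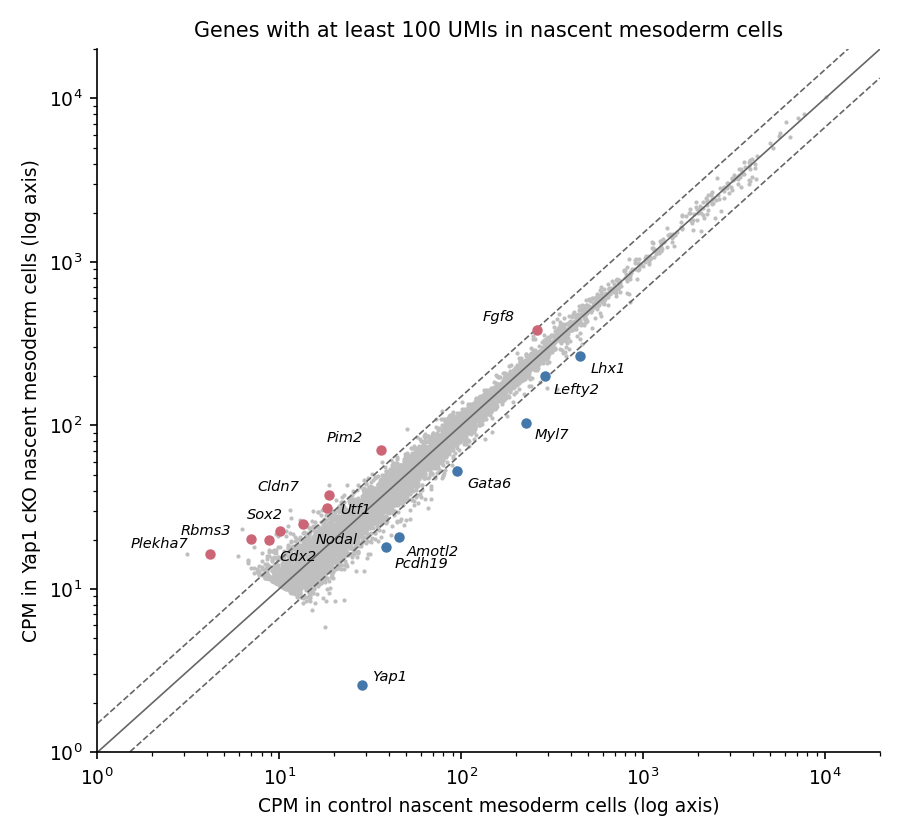
CPM of the 7824 genes with at least 100 UMIs in control (horizontal) and *Yap1* cKO (vertical) nascent mesoderm cells, both on log axes, with the line of equality and dashed lines at 1.5-fold. Named genes are blue where lower and red where higher in the *Yap1* cKO cells. *Yap1* stands alone at the bottom with a ratio of 0.09, and *Myl7*, *Lhx1* and *Gata6* lie below the band.

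Of 30 YAP target and Hippo feedback genes, 16 reached the minimum. The ratio was below 1 for 13 of them, 4 were at least 1.5-fold lower and 1 higher, with a median log2 ratio of -0.24. The 4 lower genes encode Hippo pathway proteins. *Amotl2*, which encodes an angiomotin that binds YAP1, stood at 45.4 and 20.8 CPM (0.46, 0.36 to 0.58), and its relative *Amot* at 94 and 55.2 CPM (0.59, 0.50 to 0.68). The Hippo scaffold genes *Wwc2* (55.0 and 34.6 CPM, 0.63, 0.51 to 0.76) and *Frmd6* (25.7 and 16.3 CPM, 0.64, 0.47 to 0.85) followed. The LIM protein gene *Ajuba* (0.67, 0.47 to 0.96) and the phosphatase gene *Ptpn14* (0.73, 0.52 to 1.02) were lower by less than 1.5-fold. The third angiomotin, *Amotl1*, stood at 15.8 and 16.5 CPM (1.04, 0.75 to 1.46), and the kinase gene *Lats1* (0.98), *Nf2* (0.97), *Arhgef17* (0.98), *Fjx1* (0.92) and *Wwc1* (0.88) had intervals that held 1. *Asap1* (0.81, 0.72 to 0.92) and *Dlc1* (0.80, 0.70 to 0.90) were slightly lower. *Igfbp3* had a ratio of 1.07, but 1 cell held 76.9% of its control UMIs and the ratio was 2.67 without the highest cell of each library. *Rbms3*, an RNA-binding protein gene, went the other way at 7.01 and 20.3 CPM (2.89, 1.89 to 4.57).

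*Amotl2* and *Ajuba* were also lower in both neighbours. *Amotl2* had a ratio of 0.34 (0.22 to 0.52) in streak cells and 0.45 (0.33 to 0.61) in later mesoderm, against 0.86 (0.75 to 0.99) in extraembryonic ectoderm. *Ajuba* had 0.32 in streak cells and 0.38 in later mesoderm, lower than the 0.67 of the members. *Amotl2* was close in both sex classes of the control, 46.2 CPM in Y-bearing and 44.8 CPM in *Xist*-bearing members, against 15.6 and 20.4 CPM in the *Yap1* cKO. The matricellular genes *Ccn1* and *Ccn2*, classical YAP targets, had 9 and 19 UMIs and 42 and 34 UMIs over the members, under the minimum. *Ccn1* stood at 2.34 and 3.27 CPM (1.4, 0.60 to 3.51) and *Ccn2* at 10.9 and 5.85 CPM (0.54, 0.33 to 0.86).

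**Figure D4:**
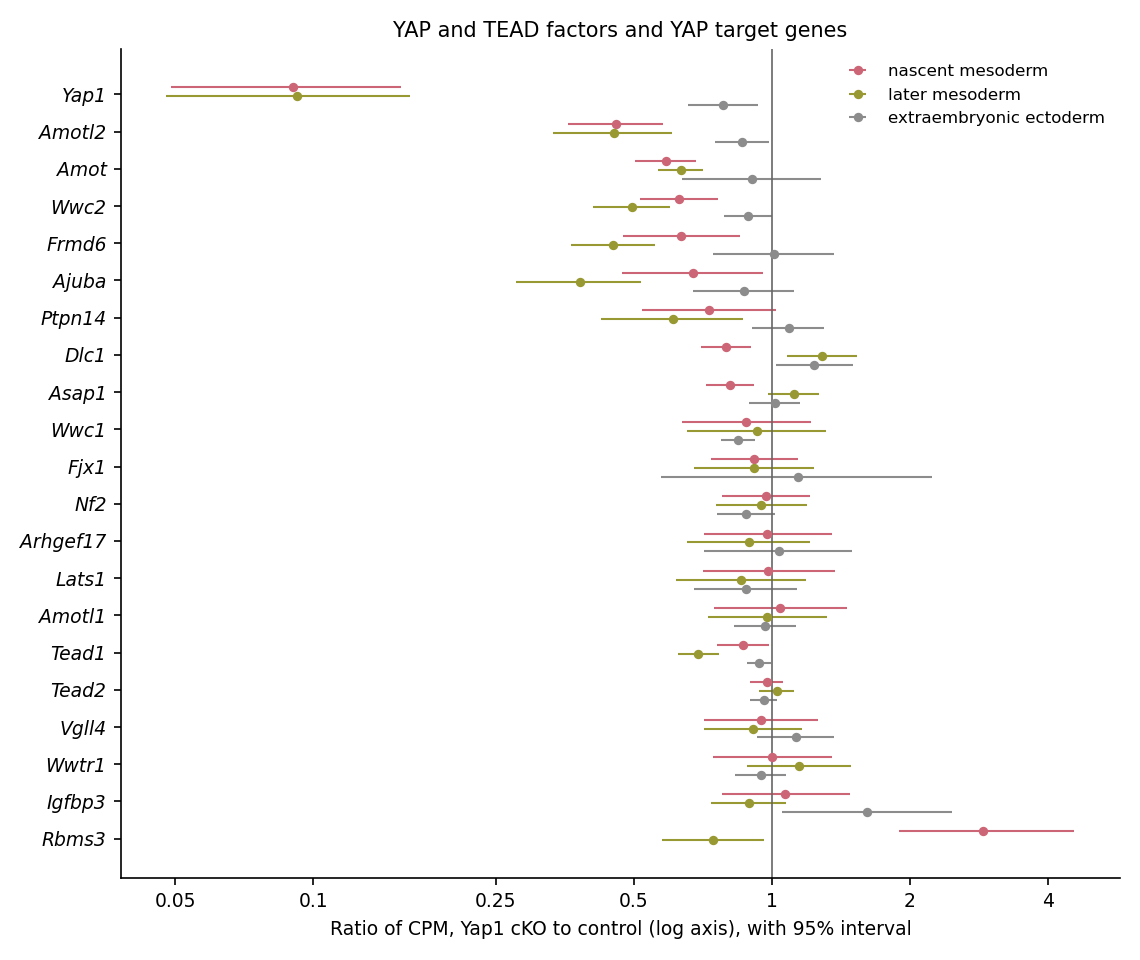
Ratio of CPM in *Yap1* cKO to control (horizontal log axis) with exact 95% intervals for YAP and TEAD factors and the YAP target and feedback genes with at least 100 UMIs, in nascent mesoderm (red), later mesoderm (olive) and extraembryonic ectoderm (grey, not drawn under 20 UMIs). *Yap1* and *Amotl2* lie well below 1 in both mesoderm populations, at 0.09 and 0.46 in nascent mesoderm, and 0.78 and 0.86 in extraembryonic ectoderm.

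The promoters of *Amotl2* (chr9:102717554-102717853, plus strand) and *Wwc2* (chr8:47990495-47990794, minus strand) are shown because both genes were at least 1.5-fold lower and hold TEAD letters. Capitals mark GGAATG, the core of the TEAD motif, or its reverse CATTCC.
Amotl2: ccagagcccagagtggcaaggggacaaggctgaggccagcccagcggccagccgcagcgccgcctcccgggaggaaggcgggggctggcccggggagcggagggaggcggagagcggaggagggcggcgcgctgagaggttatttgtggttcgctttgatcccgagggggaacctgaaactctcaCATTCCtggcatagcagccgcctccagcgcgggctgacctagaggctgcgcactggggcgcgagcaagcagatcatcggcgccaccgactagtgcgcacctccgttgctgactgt
Wwc2: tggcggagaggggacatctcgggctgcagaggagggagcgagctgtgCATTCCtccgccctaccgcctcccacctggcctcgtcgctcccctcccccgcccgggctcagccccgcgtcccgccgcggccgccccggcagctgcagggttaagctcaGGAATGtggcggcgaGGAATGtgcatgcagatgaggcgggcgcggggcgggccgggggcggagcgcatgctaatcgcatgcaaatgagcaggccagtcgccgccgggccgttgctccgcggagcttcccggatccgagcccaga
*Amotl2* held 1 match, at bases 186 to 191, and *Wwc2* held 3, at bases 48 to 53, 157 to 162 and 172 to 177. Of the 16 genes, 12 had a promoter in the table, and 4 of these (*Amotl2*, *Wwc2*, *Ajuba* and *Ptpn14*) held the letters, while *Amot* and *Frmd6* did not. Of 32851 windows of this length, 14.7% hold GGAATG on either strand.

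Of 15 cardiac and anterior mesoderm genes, only 4 reached the minimum. All 4 had a ratio below 1 and 3 were at least 1.5-fold lower in the *Yap1* cKO members, with a median log2 ratio of -0.84. *Myl7* stood at 227 and 104 CPM (0.46, 0.41 to 0.51), the endoderm and heart regulator *Gata6* at 94.8 and 52.4 CPM (0.55, 0.47 to 0.65), the T-box gene *Tbx3* at 46.0 and 26.0 CPM (0.56, 0.45 to 0.71) and *Gata4* at 78.4 and 58.8 CPM (0.75, 0.64 to 0.88). *Lhx1* followed them at 451 and 265 CPM (0.59, 0.55 to 0.63). The genes differed in how steady the contrast was. *Gata6* stood at 88.9 CPM in Y-bearing and 99.5 CPM in *Xist*-bearing control members, above both classes of the *Yap1* cKO (20.3 and 55.5 CPM). *Myl7* stood at 72.5 CPM in Y-bearing and 351 CPM in *Xist*-bearing control members and at 39.0 and 117 CPM in the *Yap1* cKO, so the classes of the genotypes overlapped. In later mesoderm the ratio of *Myl7* was 1.26, on the other side of 1.

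Most epiblast and pluripotency genes lay the other way. All 12 listed reached the minimum, 9 had a ratio above 1 and 5 were at least 1.5-fold higher, with a median log2 ratio of 0.43. They were the pluripotency factor *Sox2* at 10.1 and 22.5 CPM (2.22, 1.54 to 3.27), the kinase gene *Pim2* at 36.1 and 70.3 CPM (1.95, 1.6 to 2.38), the arginine transporter gene *Slc7a3* at 7.01 and 13.4 CPM (1.91, 1.22 to 3.08), the chromatin factor *Utf1* at 18.4 and 31.5 CPM (1.71, 1.29 to 2.28) and the POU factor *Pou3f1* at 15.3 and 24.2 CPM (1.58, 1.16 to 2.18). The de novo DNA methyltransferase gene *Dnmt3b* stood at 345 and 482 CPM (1.40, 1.31 to 1.49). *Pou5f1*, at 66.7 and 68.6 CPM (1.03, 0.88 to 1.21), and *Otx2* (0.87, 0.75 to 1.01) were within 1.5-fold, and the Nodal co-receptor gene *Tdgf1* was lower at 546 and 455 CPM (0.83, 0.79 to 0.88). A single *Yap1* cKO cell held 31.1% of the *Utf1* UMIs, and without the highest cell of each library its ratio was 1.41, while that of *Sox2* was 2.57. Most control *Utf1* UMIs lay in members with under 20 *Mesp1* and *Mesp2* UMIs, and in that class the ratio of *Utf1* was below 1. It was further above 1 among the other members, which include that single *Yap1* cKO cell. With each cell weighted equally the median log2 ratio of the list was 0.20. *Sox2* was found in 15 of 52 control and 33 of 71 *Yap1* cKO cells. It stood at 17 CPM in Y-bearing and 4.67 CPM in *Xist*-bearing control members, and at 25 and 22.2 CPM in the *Yap1* cKO classes. *Sox2* (120 and 132 CPM) and *Utf1* (509 and 511 CPM) were also abundant in extraembryonic ectoderm, so they are not particular to epiblast.

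**Figure D5:**
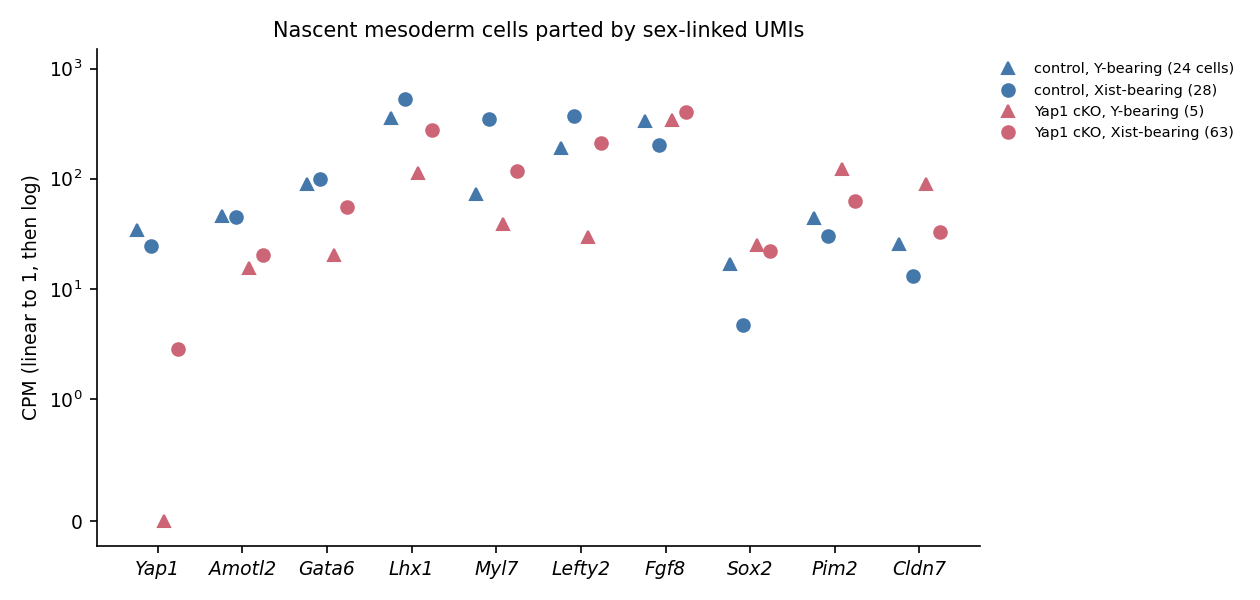
CPM of 10 genes (vertical axis, linear up to 1 CPM and logarithmic above) in Y-bearing (triangles) and *Xist*-bearing (circles) nascent mesoderm cells of the control (blue) and *Yap1* cKO (red) library. Both red symbols lie below both blue ones for *Yap1*, *Amotl2*, *Gata6* and *Lhx1*, while they overlap for *Myl7* and *Lefty2*.

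Streak genes were split. Of 12, 11 reached the minimum, 2 were at least 1.5-fold higher and 1 lower, with a median log2 ratio of 0.0016. That median lay over opposite signs, -0.40 in Y-bearing and 0.41 in *Xist*-bearing members. *Nodal*, the ligand that drives streak formation, stood at 13.5 and 25.1 CPM (1.86, 1.35 to 2.60) and *Fgf8*, which drives cells out of the streak, at 261 and 385 CPM (1.47, 1.37 to 1.59). The medians of *Fgf8* over cells lay the other way, at 213 and 181 CPM, and its levels in Y-bearing members were close (336 and 339 CPM). *T* (1.0, 0.92 to 1.09) and *Eomes* (1.0, 0.93 to 1.08) were level. The caudal gene *Cdx2* stood at 8.83 and 19.9 CPM (2.26, 1.53 to 3.42) over all members but had a ratio of 0.77 among the 39 control and 54 *Yap1* cKO cells with at least 20 *Mesp1* and *Mesp2* UMIs, a class set after the data were seen. Of the markers not in the rule, *Lefty2* (0.69, 0.64 to 0.75), *Dll1* (0.67, 0.51 to 0.89) and *Tbx6* (0.71, 0.50 to 1.01) were lower by less than 1.5-fold and *Rspo3* was higher (1.34, 1.17 to 1.53). *Lefty2* stood at 191 CPM in Y-bearing and 371 CPM in *Xist*-bearing control members, a larger fold than that between the genotypes. All 6 presomitic and paraxial genes that reached the minimum had a ratio below 1, and 2 were at least 1.5-fold lower, the protocadherin gene *Pcdh19* at 38.7 and 18.1 CPM (0.47, 0.36 to 0.60) and the Notch modifier *Lfng* at 14.0 and 8.42 CPM (0.60, 0.40 to 0.90).

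Genes of cell movement and adhesion lay on both sides of 1. Of 22 migration and guidance genes that reached the minimum, 8 had a ratio above 1 and 14 below. Of them, 6 were at least 1.5-fold lower and 1 higher, with a median log2 ratio of -0.21. The semaphorin gene *Sema6d* stood at 15.1 and 7.39 CPM (0.49, 0.32 to 0.74), the chemokine receptor gene *Cxcr4* at 23.6 and 13.8 CPM (0.58, 0.43 to 0.79) and the hyaluronan synthase gene *Has2* at 33.5 and 20.1 CPM (0.60, 0.46 to 0.78). *Pdgfra*, which mesoderm cells need to migrate, stood at 79.97 and 49 CPM (0.61, 0.52 to 0.72). The Slit receptor *Robo1*, the most abundant of the list, stood at 372 and 283 CPM (0.76, 0.71 to 0.82). Of the genes of the epithelial to mesenchymal transition, 16 reached the minimum, 7 had a ratio above 1 and 9 below, 2 were at least 1.5-fold higher and 1 lower, with a median log2 ratio of -0.096. The epithelial genes *Cldn7* at 18.7 and 37.6 CPM (2.01, 1.54 to 2.67), *Cldn6* (1.75, 1.27 to 2.43), *Cdh1* (1.42, 1.13 to 1.80) and *Epcam* (1.33, 1.23 to 1.44) had ratios above 1. The mesenchymal cadherin gene *Cdh2* (0.72, 0.66 to 0.79), the fibronectin gene *Fn1* (0.80, 0.75 to 0.86) and *Snai1* (0.85, 0.76 to 0.95) had ratios below 1, as did the laminin gene *Lama1* (0.64, 0.45 to 0.92), the lower gene of the list. The mesenchymal filament gene *Vim* lay the other way at 49.6 and 54.0 CPM (1.09, 0.91 to 1.31), and the tight junction gene *Tjp1* (1.06, 0.92 to 1.23) and the epithelial splicing gene *Esrp1* (1.09, 0.81 to 1.48) were near 1. The mesenchymal factors *Zeb2* (0.80, 0.71 to 0.90) and *Twist1* (0.88, 0.65 to 1.18) and the cadherin gene *Cdh11* (0.80, 0.70 to 0.91) were below 1, with *P4ha1* at 0.88 and *Epb41l5* at 0.99.

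Few genes of the signalling lists passed 1.5-fold, at most 2 in a list, against 1.9% higher and 1.76% lower over all genes. Differences between the lists were not tested. Counts here are of genes that reached the minimum. Of 15 Nodal pathway genes, 1 was at least 1.5-fold higher (*Nodal*) and 1 lower, the activin receptor gene *Acvr2a* at 44.7 and 25.6 CPM (0.57, 0.46 to 0.72). Of 14 BMP pathway genes, 1 was higher, *Id2* (1.61, 1.14 to 2.31), and none lower, with the receptor gene *Bmpr2* at 0.67 (0.55 to 0.81). Of 22 Wnt pathway genes, *Sp8* was higher (1.66, 1.17 to 2.40) and the secreted antagonist *Sfrp1* lower (0.64, 0.47 to 0.88), though the ratio of *Sfrp1* was 1.07 in Y-bearing members. None of 18 FGF and ERK pathway genes passed 1.5-fold. *Fgf8* and *Fgf15* (1.37) were their highest and *Fgf10* (0.72) and *Fgf3* (0.75) their lowest. Of 22 Notch pathway genes, 10 reached the minimum and all 10 had a ratio below 1, against 4003 of 7824 over all genes. Of these, 2 were at least 1.5-fold lower, *Lfng* and the co-activator gene *Maml1* (0.65, 0.45 to 0.95). None of 4 retinoic acid genes passed 1.5-fold, with the retinoic acid hydroxylase gene *Cyp26a1* at 192 and 179 CPM. Of 10 p53 targets, 2 were at least 1.5-fold higher, the cell cycle inhibitor gene *Cdkn1a* at 9.87 and 21.1 CPM (2.14, 1.48 to 3.17) and *Phlda3* (1.83, 1.25 to 2.73). The ratio of *Phlda3* was 0.89 in Y-bearing members, and that of *Cdkn1a* was 0.67 in later mesoderm.

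None of 20 S phase genes (median log2 ratio -0.062) and 20 G2 and M phase genes (0.12) passed 1.5-fold. Nor did any of the 13 of 16 chromatin and DNA methylation genes that reached the minimum (-0.081), and no homeobox cluster gene reached it. The G2 and M gene *Ube2c* was the furthest of them at 336 and 450 CPM (1.34, 1.25 to 1.43). Lists that mark other cells were thin. Extraembryonic and lateral mesoderm genes summed to 165 and 174 CPM, blood and endothelial genes to 84.4 and 82.0 CPM, node and endoderm genes to 61.5 and 89.6 CPM, extraembryonic endoderm genes to 107 and 97.5 CPM (mostly *Apoe*, 85.2 and 75.1 CPM) and extraembryonic ectoderm genes to 97.9 and 113 CPM (led by *Fgfr2*, 46.7 and 46.8 CPM). Of the genes of these 5 lists that reached the minimum, only *Cldn6* and *Cdx2* passed 1.5-fold. Germ cell genes summed to 48.8 and 83.0 CPM, with *Ifitm3* at 18.7 and 43.2 CPM (2.31, 1.77 to 3.04). The ratio of *Ifitm3* turned with the class of cells, to 0.53 in Y-bearing and 4.66 in *Xist*-bearing members. It was 1.04 among cells with at least 20 *Mesp1* and *Mesp2* UMIs. The part of other cells in the contrasts above was not tested.

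By size alone, with intervals that did not overlap and the same direction in Y-bearing and *Xist*-bearing members, the 10 lowest genes were *Yap1* itself, the histone gene *Hist1h4a* (0.38), *Dcaf6* (0.42), the collagen gene *Col19a1* (0.44), *Myl7*, *Amotl2*, the phospholipase gene *Pla2g6* (0.46), *Pcdh19*, the uridine phosphorylase gene *Upp1* (0.48) and *Enox2* (0.49). *Upp1* stood at 65.4 and 31.1 CPM and was nearly as high in Y-bearing (62.0 CPM) as in *Xist*-bearing (68.2 CPM) control members. A single control cell held 38.6% of the *Pla2g6* UMIs, and its ratio was 0.69 without the highest cell of each library. The 10 highest were *A830018L16Rik* (5.24), the junction gene *Plekha7* (3.93), the exocyst gene *Exoc6* (3.72), *Rbms3*, *Gm32913* (2.65), the microtubule gene *Map1b* (2.65), *Fsd1* (2.48), the mitochondrial carrier gene *Ucp2* (2.32), *Cdx2* and *Sox2*. Several of these rested on few cells. *A830018L16Rik* had 12 and 95 UMIs and 1 cell held 31.6% of the latter, *Plekha7* 34.7%, *Exoc6* 36.3% and *Gm32913* 48.9%. *Map1b* was spread more evenly at 11.4 and 30.3 CPM (1.89 to 3.77), found in 29.4% and 66.7% of cells thinned to 49000 UMIs, and *Ucp2* in 41.2% and 69.7%.

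Of the 138 lower genes, 113 had both *Yap1* cKO classes below both control classes, and of the 149 higher genes, 114 had both above. Over all 7824 genes, 1381 had both below and 1315 both above, whatever the size of the difference. The 5 Y-bearing *Yap1* cKO members held 640804 UMIs in all, so their values are the least certain. For 4 of the 25 lists with a median, the median over Y-bearing members alone stayed within 0.2 (log2) of that over all members. Nascent mesoderm markers had a median log2 ratio of -2.66 in Y-bearing and -0.34 in *Xist*-bearing members, and presomitic and paraxial genes -2.96 and -0.43. These rest on 4 and 6 genes. *Yap1*, *Dll1* and *Lama1* had no finite log2 ratio in Y-bearing members but kept a place in the order behind the medians of their lists. Cardiac and anterior mesoderm genes had -1.43 and -0.61, epiblast genes 0.81 and 0.44, migration genes -0.56 and -0.20, and YAP target and Hippo feedback genes -0.57 and -0.20, each on one side of 0 in both classes. Notch pathway genes had -0.25 and -0.32, YAP and TEAD factors -0.61 and -0.13, node and endoderm genes 1.62 and 0.41, FGF and ERK pathway genes -0.030 and -0.023, and p53 targets 0.010 and 0.16. Genes of the epithelial to mesenchymal transition had -0.86 and 0.012, extraembryonic and lateral mesoderm genes -0.70 and 0.40, blood and endothelial genes -0.78 and 0.0033, Nodal pathway genes -0.29 and 0.074, BMP pathway genes -0.27 and 0.12, retinoic acid genes -0.44 and 0.45, and G2 and M phase genes -0.11 and 0.15. Germ cell genes had -0.25 and 0.97, extraembryonic endoderm genes 0.32 and -0.38, extraembryonic ectoderm genes 0.32 and -0.0033, chromatin and DNA methylation genes 0.13 and -0.053, and S phase genes 0.0020 and -0.075. The sign of these lists, and of the streak list, differed between the classes. Wnt pathway genes had -0.56 and -0.032.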

How the data were processed

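UMI counts of 2 libraries, control and *Yap1* cKO, were used as deposited: per the labels' processing notes, the authors ran Cell Ranger 7.1.0 with mm10, and the counts are not normalized and cover the barcodes it kept as cells. The SoupX correction of the study was not repeated, and its later filters kept slightly fewer cells. Scrublet in scanpy 1.11.5 called 1 of 1829 control and 6 of 1897 *Yap1* cKO barcodes, none a member, so doublets were in effect not removed. UMIs were summed over members and scaled to CPM in Python 3.11.15. Exact 95% intervals (scipy 1.17.1) are Poisson for a CPM, Clopper-Pearson for a share and, for a ratio, binomial given the summed UMIs. A list gene counted as higher or lower past 1.5-fold. All 32285 genes entered, 7824 with at least 100 UMIs over members. The ratio and interval were tried on simulated Poisson counts with known ratios, which hold no variation between cells or embryos.

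Genes named were drawn from the fixed markers, per list up to 4 with the largest ratio and 2 with most UMIs, all tested YAP genes, the 10 highest and 10 lowest, and the 12 furthest from streak and later mesoderm. Not every list gene that the rule selects is printed. Exceptions are genes of these lists with middling ratios, *Snai1*, *Id2* for its correlation, and those under the UMI minimum, which were named after their values were seen. The members and the 26 lists were chosen with earlier results of these data known.

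Alternatives were other quality, *Mesp* and other-type limits, thinned gates, single sex classes, equal cell weights, another scaling and other UMI minimums. The cleaned streak and later mesoderm cells, and the extraembryonic ectoderm cells (170 and 87), were set after seeing the data. Extraembryonic ectoderm cells held at least 5 *Elf5*, *Esx1* and *Wnt7b* UMIs, fewer than 3 of *Pou5f1* and fewer than 3 of *Mesp1* and *Mesp2*. The limits on blood, node and extraembryonic endoderm genes were kept for them.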

Additional observations from a re-analysis of the deposited data

Results flagged for a closer look

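For 8 named genes the ratio of *Yap1* cKO to control lay on one side of 1 in nascent mesoderm cells and on the other in streak or later mesoderm cells, with both counting intervals clear of 1 and at least 2-fold between the ratios. The difference was not tested, since each genotype has 1 library. Later mesoderm cells of the control and *Yap1* cKO also differed in *Hand1* (421 and 220 CPM) and *Foxf1* (159 and 100 CPM), which chose them. *Utf1* stood there at 16.9 and 43.0 CPM and *Cdh1* at 12.3 and 33.8 CPM, while *Gata4* (106 and 97.8 CPM) and *Rspo3* (124 and 121 CPM) were close. The part of this in the ratios was not tested. In later mesoderm, *Myl7* had a ratio of 1.26 against 0.46 in nascent mesoderm, *Lefty2* 2.01 against 0.69, and *Pcdh19* 1.97 against 0.47. The ratio of *Rbms3* was 0.75 in later mesoderm against 2.89, that of *Cdkn1a* 0.67 against 2.14, and that of *Ifitm3* 0.78 against 2.31. In streak cells, *Tbx3* had a ratio of 2.88 against 0.56 and *Trh* 0.55 against 1.42. The streak value of *Tbx3* rests on levels of 3.88 and 11.2 CPM.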

How the results depend on the processing

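The ratio of *Yap1* kept its direction under every alternative that gave one, from -3.68 to -3.02 on the log2 scale against -3.47. No log2 ratio could be formed in Y-bearing cells, where the *Yap1* cKO members held 0 *Yap1* UMIs, nor there for *Dll1* and *Lama1*. The numbers of genes past 1.5-fold, 149 higher and 138 lower, became 375 and 284 at a minimum of 50 UMIs and 45 and 67 at 200 UMIs. The number lower was 209 with at least 2 *Mesp1* and *Mesp2* UMIs, 225 with gates on thinned cells and 250 in Y-bearing cells, and the number higher was 90 with under 3 UMIs of other types. Members numbered 81 in the control with a lower minimum of detected genes, 39 in the *Yap1* cKO with under 3 UMIs of other types, 24 and 5 with Y-bearing cells alone, and 28 in the control with *Xist*-bearing cells alone. Of 1734 values of named genes under 14 alternatives, 1537 stayed within their interval, 192 left it and 5 turned: *Cdx2* to -0.27 with under 3 UMIs of other types and -0.38 with at least 20 *Mesp1* and *Mesp2* UMIs, and in Y-bearing cells *Ifitm3* to -0.91, *Phlda3* to -0.17 and *Sfrp1* to 0.094. Of 350 list medians, 303 moved by less than 0.2, 45 by more, and that of germ cell genes turned to -0.25 in Y-bearing cells and -0.16 with at least 20 *Mesp1* and *Mesp2* UMIs. The cardiac list ran from -1.43 in Y-bearing cells to -0.59 with cells weighted equally and the epiblast list from 0.20 to 0.81. The causes were not tested. No paired analysis was possible because each genotype has 1 library. Intervals cover counting error only.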
